A study of Homo sapiens with 13 samples.

Results

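The direct targets of the tumour suppressor p53 described here are 33 genes, chosen by name as known p53 targets, with earlier results of these data known. All 33 were found in each of 3 deposited gene tables, which list 59653, 17976 and 39733 gene symbols. CDKN1A and the BCL2 family of apoptosis regulators are left out by the same rule. The samples are 13 poly(A) RNA libraries, 1 per group, of A549 cells, which derive from a human lung adenocarcinoma. The study asked how a transcription unit on chromosome 17, which holds PRR11, SKA2, miR-301a and miR-454, acts in lung cancer cells. The unit's PRR11 is a protein of the cell cycle, and SKA2 is a subunit of the complex that ties kinetochores to spindle microtubules.

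The first set holds a stable line in which CRISPR interference represses the promoter shared by PRR11 and SKA2 (CRISPRi_PRR11+SKA2 promoter-sgRNA#1) and a line with a mock guide (CRISPRi_Mock sgRNA). The second set holds LV-PRR11 and LV-SKA2, which received PRR11 or SKA2 by lentivirus, LV-P+S, which received the pair, and their empty vector line LV-vector-PS. The third set holds LV-miR301a and LV-miR454, which received 1 microRNA each, LV-3+4, which received the pair, and the vector line LV-vector-34. The lentiviral inserts are driven by a CMV promoter. The fourth set holds lines with the miR-301a or the miR-454 precursor knocked out (CRISPRd_miR301a-#2, CRISPRd_miR454-#1) and CRISPRd_Control. All 13 cultures share the A549 background and a medium with serum, and no agent that damages DNA is named for any of them. The labels do not state whether a line is 1 clone or a pool. With 1 library per group no difference has a replicate check, so no p-value is given.

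p53 is a transcription factor that stays at a low level in unstressed cells because MDM2, itself a product of a p53 target gene, marks it for degradation. Damage to DNA and other stresses stabilise p53, which then binds response elements in its target genes and raises their transcription. The targets arrest the cell cycle, repair DNA, promote apoptosis, alter metabolism and feed back on p53. Genes of the cell cycle are instead lowered through p21 and the DREAM complex, a repressor of proliferation genes.

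A p53 response element is made of a pair of 10-base half-sites. Each was taken as 3 bases of A or G, a 4-base core and 3 bases of C or T. The core is C, 2 bases of A or T, and G. Any other base in a half-site counted as a mismatch. The promoter windows of RefSeq on GRCh38.p14, which run from 250 bases before to 50 bases after each start, were searched for a 20-base element with no spacer, fixed core C and G and at most 3 mismatches. Windows were given for 24 of the 33 members. Of these, 8 members (33.3%) held a match, against 373 of 27305 symbols (1.37%). With at most 2 mismatches the counts were 4 members (16.7%) and 98 symbols (0.359%). An exact half-site was held by 7 members (29.2%) and by 2202 symbols (8.06%). Members had 1.5 windows per symbol and all symbols 1.286, so the members had somewhat more sequence searched. The members were chosen as known targets, so a higher share of matches may follow from that choice and is no independent result. A match is a description of these letters and not a measured binding site. The 8 matches are shown because p53 binds its direct targets at elements of this kind. The 4-base cores stand in capitals, and each site is read on its gene's strand.
AEN, chr15:88621306-88621325, plus strand: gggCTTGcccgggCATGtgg
DDB2, chr11:47214969-47214988, plus strand: aagCTGGtttgaaCAAGccc
FAS, chr10:88991309-88991328, plus strand: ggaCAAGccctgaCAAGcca
FDXR, chr17:74872996-74873015, minus strand: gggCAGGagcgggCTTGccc
GDF15, chr19:18386186-18386205, plus strand: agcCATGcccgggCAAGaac
MDM2, chr12:68808923-68808942, plus strand: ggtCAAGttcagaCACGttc
RPS27L, chr15:63157527-63157546, minus strand: ggcCTAGagcagaCAAGccc
SESN1, chr6:109009018-109009037, minus strand: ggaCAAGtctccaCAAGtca

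The MDM2 match is the one with the widest context here, because MDM2 carries the feedback on p53. It begins 94 bases before an internal start of the gene, in the window chr12:68808767-68809066 on the plus strand. The matched 20 bases stand in capitals.
MDM2 window: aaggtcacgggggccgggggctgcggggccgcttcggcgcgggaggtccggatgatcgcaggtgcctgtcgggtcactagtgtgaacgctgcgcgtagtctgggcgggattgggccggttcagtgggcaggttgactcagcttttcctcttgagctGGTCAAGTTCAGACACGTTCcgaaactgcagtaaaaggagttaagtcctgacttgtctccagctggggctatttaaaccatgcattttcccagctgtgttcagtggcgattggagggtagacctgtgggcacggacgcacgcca

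The microRNAs of the unit enter this account through a shared seed, the bases 2 to 8 that pair with a target's 3′ UTR. In GRCh38.p14 the mature miR-301a-3p lies at chr17:59151149-59151171 and miR-454-3p at chr17:59137787-59137809, both on the minus strand, with the seed in capitals.
hsa-miR-301a-3p: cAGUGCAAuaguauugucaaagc
hsa-miR-454-3p: uAGUGCAAuauugcuuauagggu
The seeds are identical. The letters TTGCACT, the complement of that seed, were found in the longest annotated 3′ UTR (GENCODE 29) of 7 of the 33 members (21.2%), against 2690 of 19381 coding genes (13.9%). The members' UTRs were longer, with a median of 1689 bases against 1084. The matches of 5 members are shown with 8 bases on each side, and the match in capitals. TNFRSF10B and TP53INP1 hold the others.
FBXO22: gcccaggtTTGCACTgccataaa
GADD45A: gaaccaaaTTGCACTgaagtttt
SESN2: acagttcaTTGCACTgactctgg
ZMAT3, first match: atatttctTTGCACTaaaaaaga
ZMAT3, second match: gtctcttaTTGCACTaaattctg
RPS27L: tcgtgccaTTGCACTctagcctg

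The values are expected counts per gene, scaled here to CPM, counts relative to the library's scaled total, within each table. Totals lay between 18672570 and 21717807 counts per library. The 12 markers of A549 were each at 1 CPM or more in all 13 libraries, and CDKN2A, which is deleted in A549, lay below 1 CPM in all of them. PRR11 had 14 counts in the CRISPRi line against 2029 in its mock line, and SKA2 had 5 against 1594. In the lentiviral set SKA2 was at 60.4 CPM in LV-SKA2 and 63.5 CPM in LV-P+S, against 71.6 CPM in LV-vector-PS. PRR11 was at 121 CPM in LV-PRR11 and 122 CPM in LV-P+S, against 111 CPM in that vector, neither of them a called difference, so the label LV-PRR11 is not checked by its own gene. MIR454 had 468 counts in LV-miR454, 28 in LV-miR301a, and 0 in LV-3+4 and LV-vector-34, where 0 counts allow up to 0.157 CPM each. MIR301A had 29 counts in LV-miR301a, 34 in LV-3+4, and 0 in LV-miR454 and LV-vector-34. The introduced genes thus went against 4 labels or matched them in part, and these are written below as the libraries labelled LV-SKA2, LV-P+S, LV-miR301a and LV-3+4. Both precursors had 0 counts in all 3 CRISPRd libraries, which leaves the knockouts unchecked in poly(A) RNA.

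For each comparison a member counted as measured if both libraries together held 20 counts or more and 1 of them reached 1 CPM. A called member met a size of 1 or more on the log2 scale of CPM plus 0.5, that is 2-fold, and its exact 95% counting interval (Clopper-Pearson) did not include equal levels. Folds below are plain CPM ratios with that interval, which covers counting error only. Across the 9 comparisons of a line with its control, 14 of the 33 members were called at least once and 19 never. In single comparisons 0.252% to 15.4% of all measured genes were called. The share of all genes called at least once was not counted, so these counts describe the members and do not set them apart. Of the 14, 11 were called in 1 comparison, and GADD45A, TP53I3 and CMBL in more than 1. The map of ratios shows 1 column that stands out, that of the CRISPRi line.

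**Figure D1:**
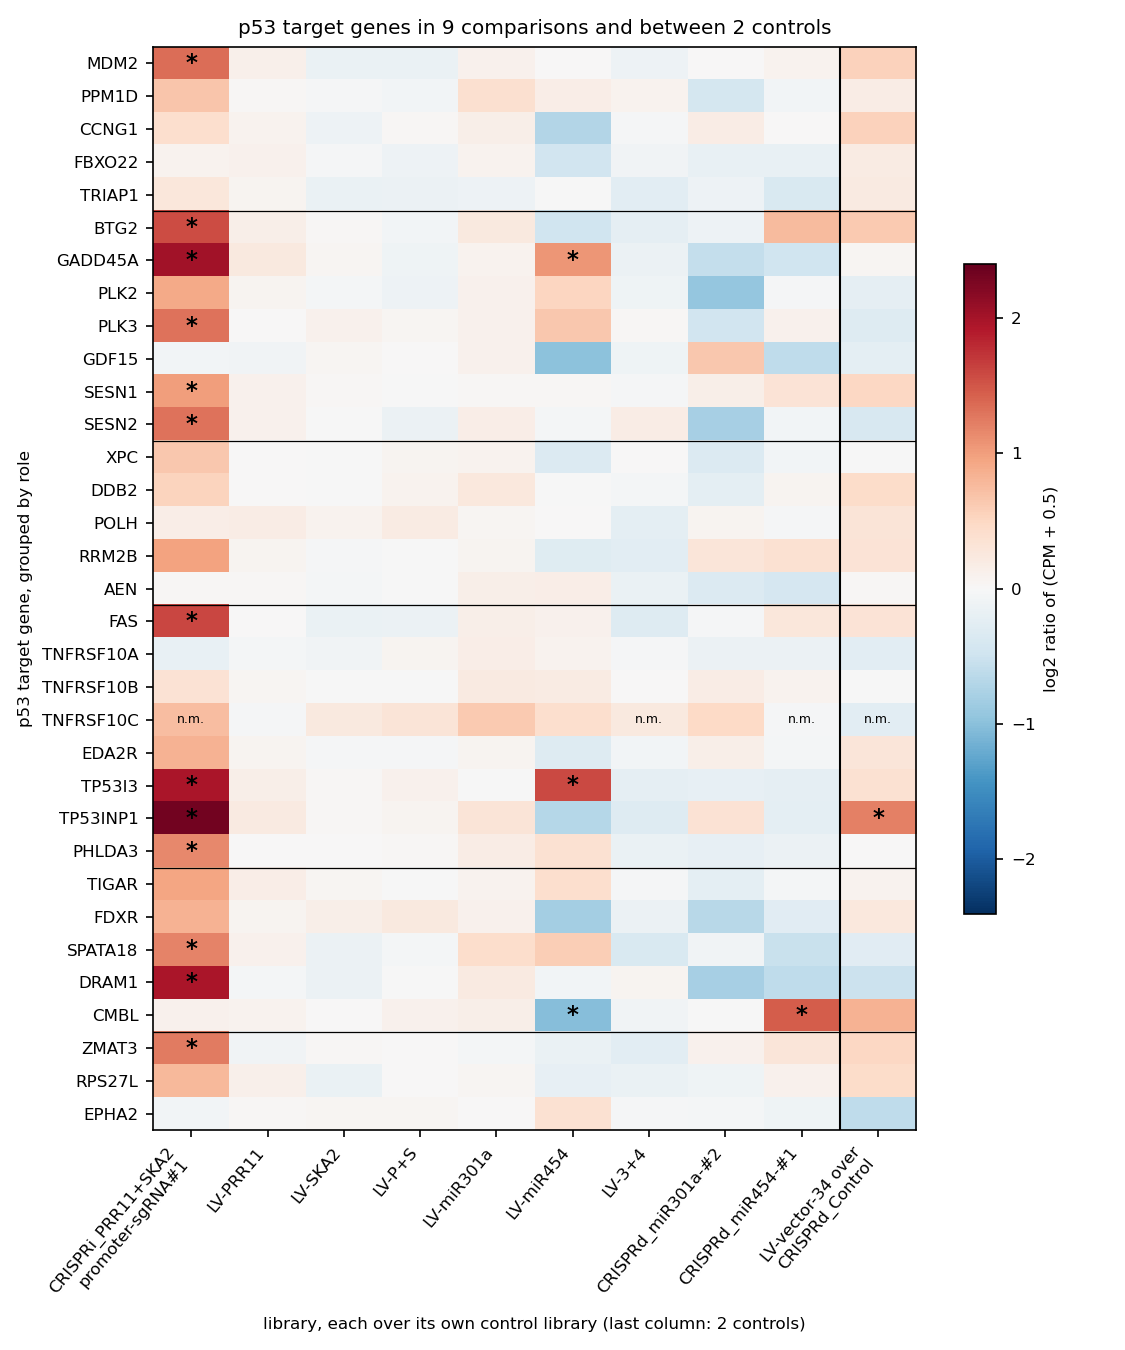
Log2 ratio of CPM plus 0.5 of each of the 33 p53 target genes (rows, by role) in each comparison of a line with its control (columns), with an asterisk for called members and n.m. for those not measured; the last column sets LV-vector-34 over CRISPRd_Control. The CRISPRi column holds 13 called members, all higher, and the lentiviral PRR11 and SKA2 columns hold none.

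In the CRISPRi line p53 targets were broadly above the mock line. Of 32 measured members, 13 rose, none fell, and 29 lay above 0, with a median log2 ratio of 0.87. Over all 15003 measured genes 9.43% were called higher and 5.97% lower, and the median was -0.04. The largest ratios were those of TP53INP1, GADD45A, TP53I3 and DRAM1, from apoptosis, growth arrest and autophagy. Gene positions below are from GENCODE 29 on GRCh38.

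Among the 5 genes that feed back on p53, 1 rose, and the group's median log2 ratio was 0.40. MDM2, the ubiquitin ligase that marks p53 for degradation (chromosome 12, 68808176 to 68850686), was at 241 CPM in the CRISPRi line and 95 CPM in the mock line, 2.53-fold higher (2.41 to 2.67). PPM1D, the phosphatase WIP1 that reverses damage signalling to p53, was at 26.5 against 16.5 CPM, 1.60-fold. CCNG1, cyclin G1, which recruits a phosphatase to MDM2, was at 119 against 89.8 CPM. FBXO22, a ubiquitin ligase adaptor, and TRIAP1, a small inhibitor of apoptosis, had log2 ratios of 0.09 and 0.27. MDM2 was the 1 feedback member past the 2-fold rule.

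Of the 7 genes of growth arrest and stress, 5 rose, and their median log2 ratio was 1.3. GADD45A, a stress protein that binds PCNA and CDK1 (chromosome 1, 67685061 to 67688338), was at 181 CPM in the CRISPRi line and 44.2 CPM in the mock line, 4.09-fold higher (3.80 to 4.40). BTG2, an antiproliferative protein that promotes mRNA deadenylation, was at 37.0 against 12.1 CPM, 3.06-fold higher (2.65 to 3.54). PLK3, a stress-activated polo-like kinase, was at 20.9 against 8.18 CPM, 2.55-fold higher (2.13 to 3.06). These 3 genes belong to arrest and checkpoint responses. SESN2, a sestrin that restrains mTORC1 when leucine is scarce, was at 31.9 CPM in the CRISPRi line against 12.7 CPM in the mock line, 2.52-fold higher (2.18 to 2.91). Its relative SESN1 was at 21.2 against 10.3 CPM, 2.06-fold higher (1.74 to 2.43), the called member nearest the threshold. PLK2, another polo-like kinase, was at 483 against 256 CPM, 1.88-fold and not called. GDF15, a secreted stress cytokine, was the exception of the group, at 90.8 CPM in the CRISPRi line and 94.7 CPM in the mock line.

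None of the 5 genes of DNA repair and nucleotide supply was called, and their median log2 ratio was 0.54. RRM2B, the p53-induced subunit of ribonucleotide reductase, came closest, at 111 CPM in the CRISPRi line against 56.1 CPM in the mock line, 1.97-fold. XPC and DDB2, which recognise DNA lesions in nucleotide excision repair, were at 83.4 against 53.1 CPM and at 98.8 against 68.0 CPM. POLH, a polymerase that copies past ultraviolet lesions, and AEN, a nuclease of apoptosis, had log2 ratios of 0.16 and 0.02. All 5 ratios were above 0, and all were below the 2-fold size.

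Of the 7 measured genes of death receptors and apoptosis, 4 rose, with a median log2 ratio of 1.15. TP53INP1, a stress protein of apoptosis and autophagy, had the largest ratio of all members, at 44.8 CPM in the CRISPRi line and 8.67 CPM in the mock line, 5.18-fold higher (4.41 to 6.11). TP53I3, an oxidoreductase also called PIG3 (chromosome 2, 24077433 to 24085861), was at 515 against 133 CPM, 3.87-fold higher (3.72 to 4.04). FAS, the receptor of the Fas ligand, was at 65.3 against 21.3 CPM, 3.07-fold higher (2.76 to 3.42). PHLDA3, which keeps AKT from the membrane, was at 221 CPM in the CRISPRi line against 99.2 CPM in the mock line, 2.23-fold higher (2.11 to 2.34). The TRAIL receptors did not share this size. TNFRSF10B was at 266 against 209 CPM and TNFRSF10A at 48.8 against 55.4 CPM. EDA2R, a receptor of ectodysplasin, was at 39.9 CPM in the CRISPRi line against 22.2 CPM in the mock line, with a log2 ratio of 0.83. TNFRSF10C, a decoy receptor for TRAIL that lacks a death domain, had 18 counts in the CRISPRi line and 6 in the mock line and did not reach the filter, with a fold of 2.79 (1.06 to 8.60). The TNFRSF10 genes are close in sequence, so reads may be divided among them by the estimate.

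Of the 5 genes of metabolism, mitochondria and autophagy, 2 rose, with a median log2 ratio of 0.96. DRAM1, a lysosomal membrane protein of autophagy (chromosome 12, 101877351 to 102012130), was at 162 CPM in the CRISPRi line and 41.3 CPM in the mock line, 3.91-fold higher (3.63 to 4.22). SPATA18, also called Mieap, which acts in mitochondrial quality control, was at 18.6 against 7.89 CPM, 2.36-fold higher (1.97 to 2.85). TIGAR, a phosphatase that lowers glycolytic flux, was at 84.3 against 43.2 CPM, 1.95-fold and just short of the call. FDXR, the mitochondrial ferredoxin reductase, had a log2 ratio of 0.83, and CMBL, a hydrolase, one of 0.11. Of the 3 remaining members, ZMAT3, a zinc finger protein that binds RNA, was at 61.7 CPM in the CRISPRi line against 25.7 CPM in the mock line, 2.4-fold higher (2.17 to 2.66). RPS27L, a ribosomal protein paralog, was at 329 against 191 CPM, and EPHA2, an ephrin receptor kinase, was at 218 against 227 CPM. Because RPS27L resembles RPS27, its reads may be shared in part with that gene.

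**Figure D2:**
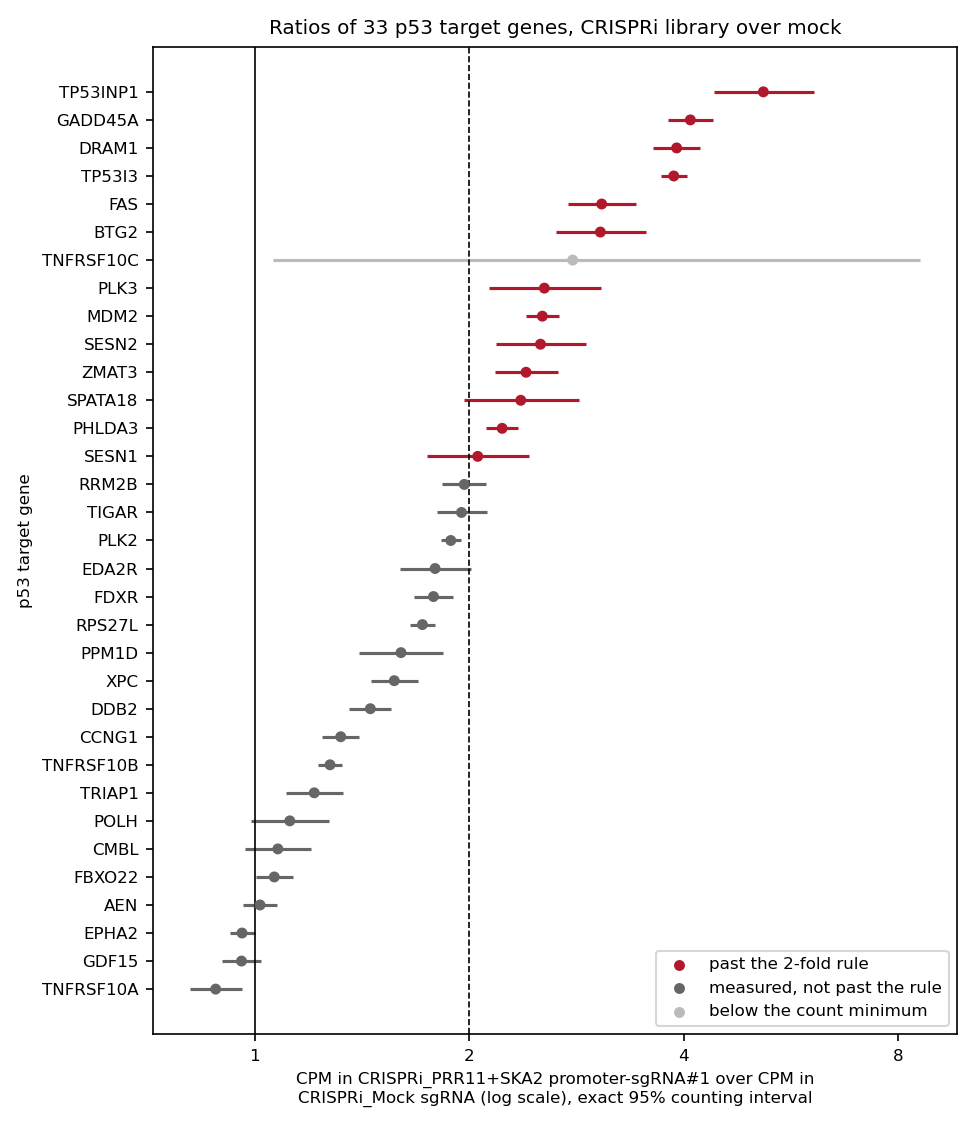
Ratio of CPM in the CRISPRi line to CPM in its mock line (log axis) for the 33 p53 target genes in order of size, 1 library each, with bars for the exact 95% counting interval and a dashed line at 2-fold. TP53INP1 is highest at 5.18-fold, SESN1 lies just past the line at 2.06-fold and RRM2B just short of it at 1.97-fold.

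Having a promoter match did not divide the called members from the others. Of the 8 members with a 20-base match, 3 rose in the CRISPRi line (FAS, MDM2 and SESN1), with a median log2 ratio of 0.81. Of the 16 members whose windows held no match, 7 rose, with a median of 0.93. AEN and GDF15, both with a match, were at log2 ratios of 0.02 and -0.06. Response elements in introns or farther upstream lie outside the windows searched. Inside the windows, elements with a changed core C or G, a spacer or more than 3 mismatches were not matched.

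Of 26 measured regulators of p53, 2 rose and 2 fell, against 15.4% of all genes called in either direction, and their median log2 ratio was -0.34. TP63, a p53 family member of basal epithelium, was at 6.17 CPM in the CRISPRi line against 1.02 CPM in the mock line, and PPP1R13L, the p53 inhibitor iASPP, was at 37.2 against 12.1 CPM. CHEK1, a checkpoint kinase, was at 15.7 against 43.1 CPM, and PRKDC, the catalytic subunit of DNA-dependent protein kinase, was at 184 against 443 CPM. Of 32 measured genes on a second list of reported p53 targets, 4 rose and none fell. Over all genes 9.43% were called higher and 5.97% lower, so the 4 calls are near the background. The list's median log2 ratio was 0.74, with 27 above 0. The 4 called genes included TRIM22, at 21.4 CPM in the CRISPRi line against 2.73 CPM in the mock line. The others were ORAI3 at 30.7 against 11.4 CPM, ABCA12 at 12.1 against 5.16 CPM and BLOC1S2, with a log2 ratio of 1.10. TRIM22 is also induced by interferon. All 20 genes of a DREAM list fell, against 5.97% of all genes called lower. Their log2 ratios lay between -2.37 and -1.40, with a median of -1.81. Of the 32 measured p53 targets, 29 lay above the mock line. Whether the changes of these lists are linked was not tested.

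Markers of A549 and of other cells also differed in this pair. Of the 12 A549 markers, 10 lay below 0, with a median log2 ratio of -0.46, and EPCAM, an epithelial adhesion molecule, fell to 2.22 CPM in the CRISPRi line, against 7.35 CPM in the mock line. The 8 fibroblast markers summed to 36.1 CPM in the CRISPRi line against 12.8 CPM in the mock line, and 4 of 5 measured rose (COL1A1, LUM, PDGFRA and THY1). The 5 immune markers summed to 83.0 against 31.6 CPM, where CD68 rose, CD3E had 0 counts in both libraries and PTPRC had 2 against 0. The 5 markers of HEK293, the line used to package lentivirus, summed to 256 against 109 CPM, where NEFL rose and LIN28B fell. The part of these markers in the member ratios was not tested, and in bulk RNA fewer cells of a type and less RNA per cell cannot be told apart. With a 1.5-fold rule 21 members were called, all higher, against 35.2% of all genes called in either direction. With a 3-fold rule 5 members were called, all higher, against 5.46% in either direction.

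In the lentiviral PRR11 and SKA2 set no p53 target was called in any of the 3 lines. All 33 members were measured in each. Over all measured genes 0.299% were called in LV-PRR11, 0.252% in the library labelled LV-SKA2 and 0.261% in the library labelled LV-P+S. The 3 lines share LV-vector-PS, so their ratios are not independent of each other.

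In LV-PRR11 the 33 log2 ratios ran from -0.08 to 0.23, with a median of 0.06 and 28 above 0. The largest were those of GADD45A, at 20.1 CPM in LV-PRR11 against 17.1 CPM in the vector line, and TP53INP1, at 15.4 against 13.1 CPM. MDM2 was at 79.3 CPM against 73.1 CPM. In the library labelled LV-SKA2 the ratios ran from -0.17 to 0.23, and 15 members lay above 0. MDM2 was at 65.0 CPM there, against 73.1 CPM in the vector line, and all 5 feedback members lay below 0, between -0.17 and -0.02. In the library labelled LV-P+S the ratios ran from -0.16 to 0.32, with 16 members above 0. MDM2 was at 65.4 CPM there and FDXR at 69.7 CPM, against 73.1 and 59.4 CPM in the vector line. The DREAM list had medians of -0.0032, -0.09 and -0.08 in LV-PRR11 and in the libraries labelled LV-SKA2 and LV-P+S.

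In the lentiviral microRNA set members were called only in LV-miR454, the line whose own precursor had the most counts. There 2 of 33 members rose and 1 fell, and 17 lay above 0, with a median log2 ratio of 0.0021. Over all 14912 measured genes 2.97% were called higher and 3.42% lower, so 3 of 33 is near the background of 6.39%. The members differed among themselves, with log2 ratios between -1.01 and 1.58.

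TP53I3 rose to 257 CPM in LV-miR454, against 85.7 CPM in LV-vector-34, 3.0-fold higher (2.84 to 3.18). It was at 85.3 CPM in the library labelled LV-miR301a and 74.1 CPM in the library labelled LV-3+4, so only LV-miR454 was above the vector line by 2-fold among the 3 lines. GADD45A, which holds a seed match in its 3′ UTR, was at 38.1 CPM in LV-miR454 against 18.1 CPM in LV-vector-34, 2.11-fold higher (1.85 to 2.4). Both genes also rose in the CRISPRi line. CMBL was at 22.1 CPM in LV-miR454 against 45.2 CPM in LV-vector-34, a plain ratio that is 2.04-fold lower (1.82 to 2.3) with a log2 ratio of -1.01. The CMBL call rests on the control and the scaling, since its log2 ratio was -0.9997, just short of the threshold, with median-of-ratios size factors and -0.19 against CRISPRd_Control.

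In LV-miR454 GDF15 came close to the call. It was at 43.0 CPM there, against 86.1 CPM in LV-vector-34, with a log2 ratio of -0.99. FDXR was at 48.1 against 85.5 CPM, CCNG1 at 75.3 against 123 CPM and TP53INP1 at 4.23 against 7.12 CPM, with log2 ratios of -0.82, -0.70 and -0.69. PLK3 was at 9.45 against 5.86 CPM and PLK2 at 216 against 150 CPM, with log2 ratios of 0.65 and 0.52. MDM2 was level, at 52.4 CPM in LV-miR454 and 52.3 CPM in LV-vector-34. The p53 inhibitor PPP1R13L rose to 63.0 CPM in LV-miR454, against 31.0 CPM in LV-vector-34. On the second target list 0 of 32 measured genes were called, and on the DREAM list 0 of 20, against 6.39% of all genes.

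No member was called in the library labelled LV-miR301a, against 0.731% of all genes, and none in the library labelled LV-3+4, against 0.646%. In the library labelled LV-miR301a, 30 of 33 members lay above 0, with a median log2 ratio of 0.10 and a range of -0.13 to 0.64. PPM1D was at 22.5 CPM there against 17.2 CPM in LV-vector-34, and SPATA18 at 5.19 against 3.77 CPM. TNFRSF10C, the member at the top of that range, had 26 counts against 13, within the counting interval of equality. Against CRISPRd_Control the median was 0.35 and 1 member was called higher, TP53INP1, at 8.88 CPM in the library labelled LV-miR301a and 2.79 CPM in CRISPRd_Control, where 4.92% of all genes were called. In the library labelled LV-3+4, 6 of 32 measured members lay above 0, with a median of -0.10 and a range of -0.36 to 0.18. The 2 libraries thus lay on opposite sides of the vector line by about the same small amount, and against CRISPRd_Control the median of the library labelled LV-3+4 was 0.064.

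**Figure D3:**
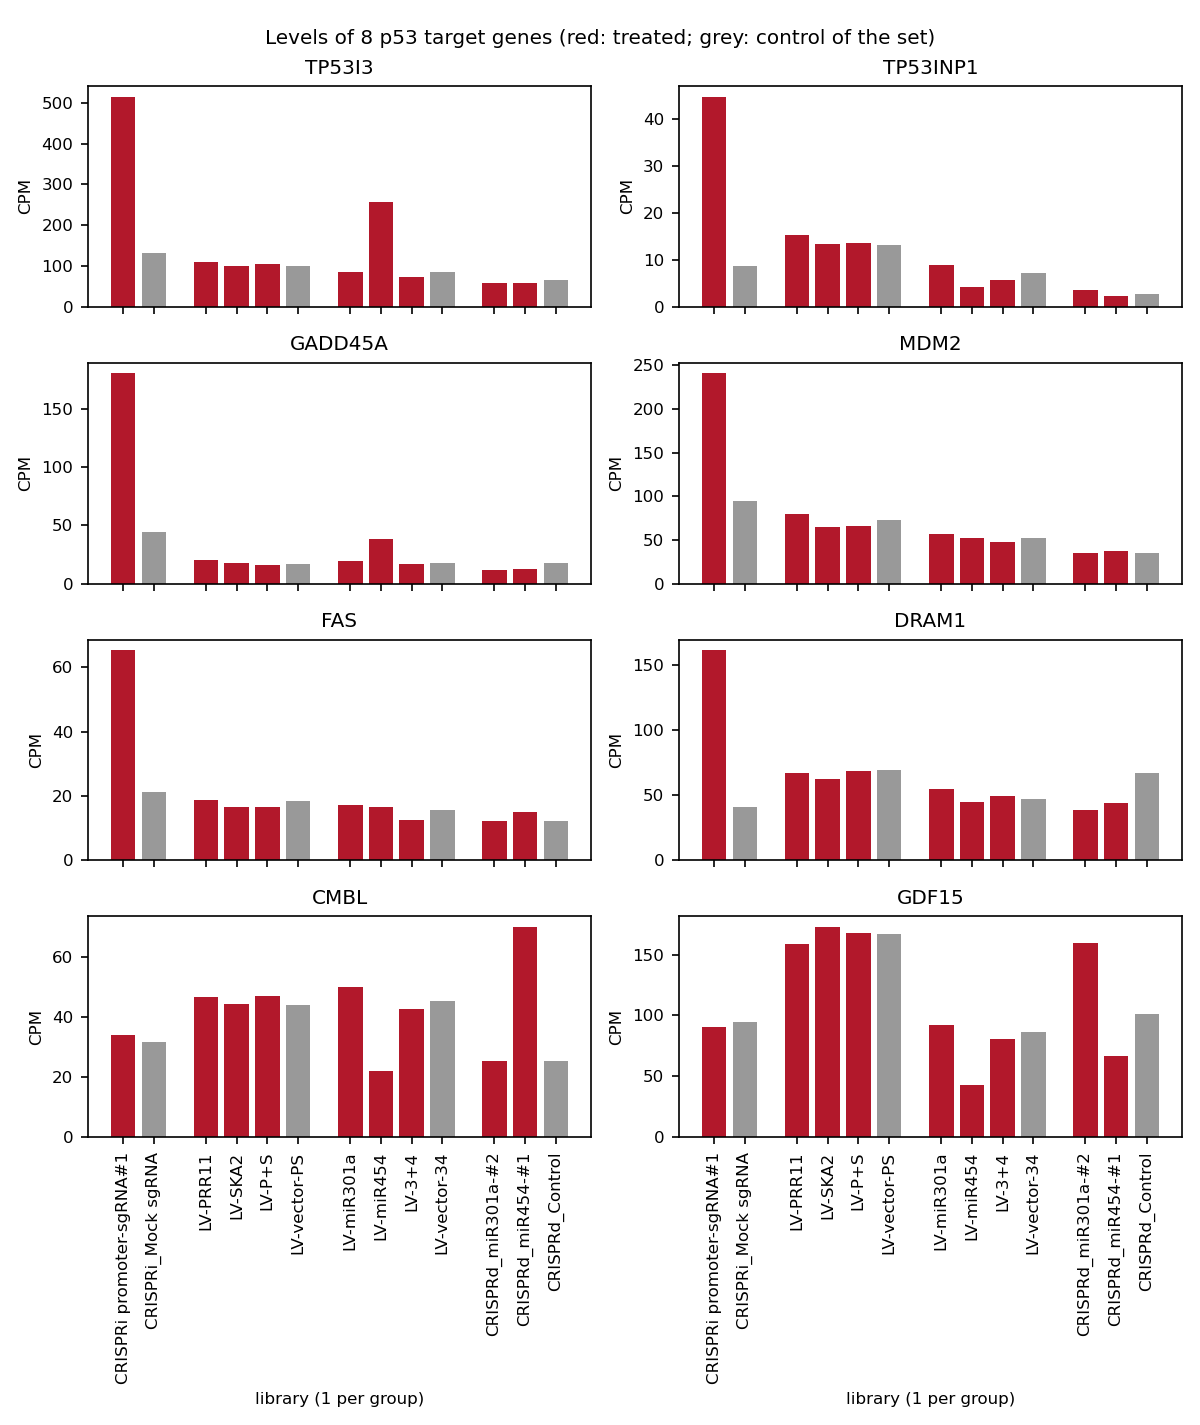
CPM of 8 p53 target genes in all 13 libraries, 1 bar per library from 0, with treated lines in red left of their control in grey, and sets separated by gaps. TP53I3 is at 515 CPM in the CRISPRi line and 257 CPM in LV-miR454, against 133 CPM in CRISPRi_Mock sgRNA and 85.7 CPM in LV-vector-34.

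In the knockout lines few p53 targets passed the rule. None of the 33 members was called in CRISPRd_miR301a-#2, against 6.72% of all genes called higher and 4.15% lower. The log2 ratios ran from -0.94 to 0.65 with a median of -0.12, and 11 members lay above 0. PLK2 was at 90.7 CPM in CRISPRd_miR301a-#2 against 174 CPM in CRISPRd_Control, DRAM1 at 38.5 against 67.2 CPM and SESN2 at 10.7 against 18.8 CPM. FDXR was at 45 against 71.3 CPM and GADD45A at 11.6 against 17.6 CPM. On the other side GDF15 was at 159 CPM in CRISPRd_miR301a-#2 against 102 CPM in CRISPRd_Control, with a log2 ratio of 0.65. MDM2 was at 35.5 CPM in CRISPRd_miR301a-#2 and 35.4 CPM in CRISPRd_Control.

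In CRISPRd_miR454-#1, 1 of 32 measured members rose and none fell, against 6.61% and 3.1% of all genes (9.71% in either direction). CMBL was at 69.9 CPM in CRISPRd_miR454-#1 against 25.2 CPM in CRISPRd_Control, 2.77-fold higher (2.50 to 3.08). Against LV-vector-34 its log2 ratio was 0.62, which is not a call, and the 1 member called was TP53INP1, lower, at 2.3 CPM in CRISPRd_miR454-#1 and 7.12 CPM in LV-vector-34, where 9.27% of all genes were called. BTG2 was at 26.4 CPM in CRISPRd_miR454-#1 against 15.4 CPM in CRISPRd_Control, with a log2 ratio of 0.76. GDF15 was at 66.5 against 102 CPM and DRAM1 at 44.2 against 67.2 CPM, with log2 ratios of -0.61 and -0.60. MDM2 was at 37.6 CPM in CRISPRd_miR454-#1 and 35.4 CPM in CRISPRd_Control. The median over members was -0.06, and 12 lay above 0. The knockout lines share CRISPRd_Control, so their ratios are not independent of each other.

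**Figure D4:**
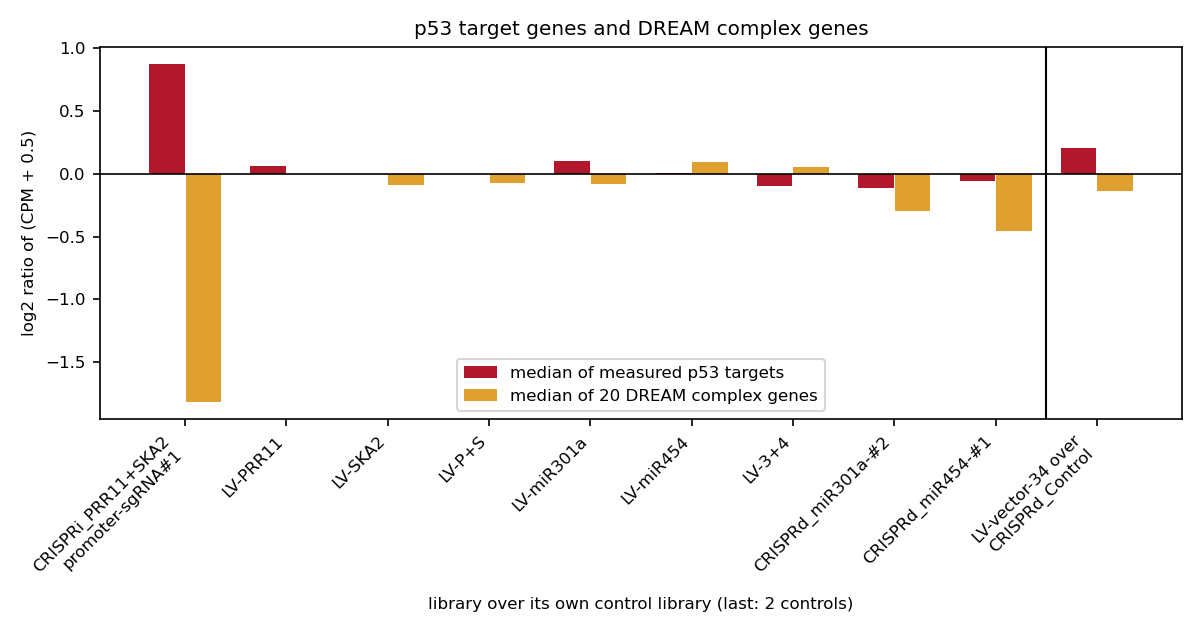
Median log2 ratio of CPM plus 0.5 over the measured p53 targets and over the 20 DREAM genes, in each line over its control and in LV-vector-34 over CRISPRd_Control (last). The CRISPRi line stands at 0.87 for the p53 targets and -1.81 for the DREAM genes, while the p53 targets lie between -0.12 and 0.10 in the other lines over their controls.

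On the second list of reported targets genes were called in both directions in the knockout lines. In CRISPRd_miR301a-#2, 3 of 32 measured rose and 2 fell, near the background of 10.9% for either direction. TLR3, a receptor of double-stranded RNA, had 60 counts in CRISPRd_miR301a-#2 against 17 in CRISPRd_Control, and PERP, a membrane protein of desmosomes, was at 434 against 175 CPM. PRDM1, a transcriptional repressor, had 10 counts in CRISPRd_miR301a-#2 and 7 in CRISPRd_miR454-#1, against 178 in CRISPRd_Control. VWCE had 4 counts in CRISPRd_miR301a-#2 against 23 in the control. In CRISPRd_miR454-#1, 2 of 32 measured rose and 1 fell, near the background of 9.71% for either direction. ABCA12, a lipid transporter, had 98 counts there against 24 in the control. Of the 27 measured regulators of p53 reported here, none was called in CRISPRd_miR301a-#2, and TP73 fell in CRISPRd_miR454-#1, with 5 counts against 23 in CRISPRd_Control. The DREAM list had medians of -0.30 and -0.46 in CRISPRd_miR301a-#2 and CRISPRd_miR454-#1, with no gene called.

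Marker sums differed between the knockout lines and their control. The 12 A549 markers summed to 39427 CPM in CRISPRd_miR301a-#2 and 43230 CPM in CRISPRd_miR454-#1, against 28088 CPM in CRISPRd_Control, with median log2 ratios of 0.49 and 0.62. KRT18, AKR1C1 and CEACAM6 rose in CRISPRd_miR301a-#2, and AKR1B10 and AKR1C1 in CRISPRd_miR454-#1. The 5 immune markers summed to 129 CPM in CRISPRd_miR301a-#2 and 160 CPM in CRISPRd_miR454-#1, against 49.6 CPM in CRISPRd_Control, with CD3E at 0 counts in all 3. PTPRC had 75 counts in CRISPRd_miR301a-#2 and 1 in the control, and CD68 and CD14 rose in both lines. The 8 fibroblast markers summed to 11.7 CPM in CRISPRd_miR301a-#2 and 16.2 CPM in CRISPRd_miR454-#1, against 19.4 CPM in CRISPRd_Control, and THY1 had 0 counts in both lines against 81. The 5 HEK293 markers summed to 95.5 and 87.0 CPM, against 65.9 CPM. In the lentiviral microRNA set the fibroblast markers summed to 82.0 CPM in LV-miR454, 86.7 CPM in the library labelled LV-miR301a and 50.5 CPM in the library labelled LV-3+4, against 36.6 CPM in LV-vector-34. In LV-miR454 COL1A1 and THY1 rose and COL3A1 fell, while in the library labelled LV-miR301a COL1A1 and COL3A1 rose. The immune markers summed to 85.9 CPM in LV-miR454 against 68.5 CPM in LV-vector-34. The part of these differences in the member ratios was not tested.

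The ratios of members with and without a seed match are given as a description. In LV-miR454 the 7 members with a match had a median log2 ratio of -0.17 and the others 0.02. The medians were 0.09 and 0.11 in the library labelled LV-miR301a, and -0.14 and -0.10 in the library labelled LV-3+4. In CRISPRd_miR301a-#2 they were -0.10 and -0.12, and in CRISPRd_miR454-#1 they were -0.07 and -0.05. GADD45A, with its match near the start of the 3′ UTR, was above the vector line in LV-miR454. It was below CRISPRd_Control, at 17.6 CPM, in both knockout lines. It stood at 11.6 CPM in CRISPRd_miR301a-#2 and 12.4 CPM in CRISPRd_miR454-#1.

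The 2 controls of the microRNA table show how far control lines of this table differed at these genes. LV-vector-34 over CRISPRd_Control called 1 of 32 measured members, against 4.35% of all genes, and the members' median log2 ratio was 0.20 with 22 above 0. The called member was TP53INP1, at 7.12 CPM in LV-vector-34 and 2.79 CPM in CRISPRd_Control, 2.55-fold higher (1.85 to 3.56). MDM2 was at 52.3 against 35.4 CPM and CMBL at 45.2 against 25.2 CPM. This median is larger in size than that of any of the 5 comparisons made with these controls.

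The 19 members called in no comparison are given by their levels over the 13 libraries, which come from 3 tables. POLH ran from 22.6 to 34.4 CPM with a median of 28.3 CPM, and XPC from 53.1 to 83.4 CPM with a median of 75.3 CPM, the repair genes with narrow ranges. DDB2 ran from 58.7 to 112 CPM, RRM2B from 42.9 to 111 CPM and AEN from 54.9 to 117 CPM. Among receptors, TNFRSF10B ran from 146 to 266 CPM, EDA2R from 22.2 to 39.9 CPM and TNFRSF10C from 0.292 to 2.63 CPM. TNFRSF10A ran from 13.4 to 55.4 CPM, and both values above 17.6 CPM are those of the CRISPRi table. The feedback genes PPM1D, CCNG1, FBXO22 and TRIAP1 had medians of 19.3, 116, 80.2 and 27.4 CPM. PLK2 ran from 90.7 to 483 CPM and GDF15 from 43.0 to 173 CPM, so members without a call still varied widely. TIGAR ran from 26.2 to 84.3 CPM, FDXR from 45 to 133 CPM, RPS27L from 132 to 329 CPM and EPHA2 from 132 to 227 CPM.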

How the data were processed

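Poly(A) RNA of A549 cells was sequenced in 13 libraries, 1 per group, per the labels' protocols. Expected counts, which are fractional estimates and carry no normalisation, stand in the 3 tables that the authors deposited. Per the submitters' processing notes, RSEM 1.3.3, Bowtie2 2.3.5.1 and GRCh38.p13 were used. Neither the annotation release nor the strandedness of counting is stated in the labels, so overlapping genes may share reads. The 33 members and all gene lists were chosen with earlier results of these data known, and 4 listed genes that are not members are not reported here.

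Expected counts were rounded. Numbered copies of a symbol in the microRNA table (4846 entries, 2.02% of counts) were summed per symbol. Entries lacking a gene name numbered 181 among the CRISPRi libraries, and these, with 0.431% of the counts of the CRISPRi line and 0.355% of its mock line, were left out. Scaling within each table used TMM, the trimmed mean of M values (edgeR 4.0.16, R 4.3.3), and ratios were formed within a table only, since the tables list different genes. A gene was measured at 20 counts over both libraries and 1 CPM in either, and called at a log2 ratio of 1 in size, with a pseudocount of 0.5 CPM, where the Clopper-Pearson 95% interval excluded equality. This log2 scale understates changes of low genes. Intervals and floors hold for counting error alone, because reads that carry no molecular identifier can repeat a molecule. At these depths 3 counts are 0.136 to 0.165 CPM.

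Members called in a comparison are named with full values, up to 12 by size, and up to 4 called genes per list. SESN1 in the CRISPRi line is past that limit and was added as the called member nearest the threshold. Members called in no comparison are given by their range, and other genes beside them were chosen after their values were seen. Alternatives were DESeq2 1.42.0 size factors, total counts, pseudocounts of 0.1 and 1 CPM, no filter, a minimum of 5 CPM, 1.5-fold and 3-fold rules, the other control of the same table, plain symbols only and unrounded counts. Additive fits of the lentiviral sets were not run. Positions of genes and their 3′ UTRs were read from GENCODE 29 on GRCh38, while RefSeq on GRCh38.p14 gave promoter windows and microRNAs.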

Additional observations from a re-analysis of the deposited data

How the results depend on the processing

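No paired analysis was possible because each group has 1 library, and for the same reason no replicate was left out. Under the 1.5-fold rule the members called were 21 in the CRISPRi line (35.2% of all genes), 9 in LV-miR454 (18.3%), 5 in CRISPRd_miR301a-#2 (24.5%), 4 in CRISPRd_miR454-#1 (22.7%) and 4 in LV-vector-34 over CRISPRd_Control (12.3%). Under the 3-fold rule they were 5 in the CRISPRi line (5.46%) and 0 in LV-miR454 (1.65%), CRISPRd_miR454-#1 (4.04%) and LV-vector-34 over CRISPRd_Control (1.62%). With total counts 1 member was called in CRISPRd_miR301a-#2, lower. That scaling put the median of all genes at -0.079 in CRISPRd_miR301a-#2 and -0.12 in CRISPRd_miR454-#1. Against CRISPRd_Control 1 member was called in the library labelled LV-miR301a (4.92%), and the members' medians were 0.35 there, 0.21 in LV-miR454 and 0.064 in the library labelled LV-3+4, where the direction turned. Against LV-vector-34 the medians were -0.36 in CRISPRd_miR301a-#2 and -0.23 in CRISPRd_miR454-#1. SESN1 in the CRISPRi line was at 0.97 with a pseudocount of 1 CPM. The cause of these shifts was not tested. With single libraries, differences between cultures and effects of the constructs cannot be told apart.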

Other observations

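Levels of different members can be set side by side only per length. The length used was the union of a gene's annotated exons, not that of the transcripts present, so the order below depends on the annotation. RPS27L, for example, was given 7938 bases. In the 4 control libraries, per kilobase of annotated exon, GDF15 had the highest median, at 81.8 CPM per kilobase, followed by PLK2 at 56.6, EPHA2 at 48.4 and TP53I3 at 45.5 CPM per kilobase. The ranges over the 4 controls ran from 71.8 to 139 for GDF15, 50.8 to 86.5 for PLK2, 34 to 57.4 for EPHA2 and 32.8 to 65.4 CPM per kilobase for TP53I3, so that of GDF15 overlapped that of PLK2 and lay above those of EPHA2 and TP53I3. TNFRSF10C, TP53INP1 and SPATA18 were lowest, with medians of 0.463, 1.39 and 1.43 CPM per kilobase. TP53INP1, the member with the largest ratio in the CRISPRi line, was thus among the lowest in the controls.

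SPATA18 and ZMAT3 were among the members whose ranges did not overlap between 2 tables. MDM2, RRM2B, TP53INP1, SESN1 and TNFRSF10C were others, as was TIGAR, whose ranges nearly touched. TNFRSF10B was lower in the lentiviral PRR11 and SKA2 table without overlap. The share of all genes with such ranges was not counted, so this is not shown to be a trait of the members. SPATA18 was at 13.1 to 15.5 CPM in the 4 libraries of the lentiviral PRR11 and SKA2 table, and at 2.82 to 5.92 CPM in the 7 libraries of the microRNA table. ZMAT3 was at 28.1 to 30.4 CPM in the first of these and 11.3 to 16.1 CPM in the second. Culture, processing and the genes listed cannot be told apart between tables.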
